A study of Mus musculus with 6 samples.

Results

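Leukaemic B cells build their antigen receptor from 1 rearranged heavy chain and 1 rearranged light chain, and each chain begins with an immunoglobulin variable (V) gene. The 9 V genes described here were chosen by their summed counts over the 6 libraries, as the most counted V genes of their loci: Ighv11-2 and Ighv11-1 of the heavy chain locus, Igkv8-28, Igkv2-109, Igkv17-127, Igkv14-126 and Igkv2-116 of the kappa locus, and Iglv1 and Iglv3 of the lambda locus. They are 9 of 346 annotated V genes and of 54232 genes in the table. All 9 were found, 7 by the table's own symbol and 2 (Ighv11-1 and Igkv2-116) by the Ensembl name of an unnamed identifier. High counts chose the genes, so their levels are a description with no test.

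The cells were chronic lymphocytic leukaemia (CLL) cells sorted from spleen. Donor Eµ-TCL1 mice, whose transgene drives the TCL1 oncogene in B cells, had reached terminal disease, with at least 60% CD5+ CD45R(low) cells among blood leukocytes. Their splenic mononuclear cells, about 99% CLL cells, were injected into the peritoneum of wild-type C57BL/6J recipients, which keep their own B cells. From day 5 the recipients received by mouth either 50 mg/kg PF-670462, which inhibits the delta and epsilon forms of casein kinase 1, in 10% kolliphor in PBS (CK1i, 3 libraries) or 10% kolliphor in PBS alone (CTRL, 3 libraries), 5 days on and 2 days off, for 8 weeks. The labels do not say whether all recipients received cells of the same donor, nor whether 1 mouse gave 1 library. Each sample title carries its own number, which the labels do not explain, and replicates are numbered here in accession order. The p-values therefore measure only the spread between these libraries, which may be technical. No age of the animals was given in the labels.

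V(D)J recombination joins 1 V segment to downstream segments, so the dominant V gene of a B-cell clone marks its descendants. B-1 cells, from which Eµ-TCL1 leukaemias are thought to arise, often use V genes that bind self-lipids, among them Ighv11-2 paired with Igkv14-126, a receptor for phosphatidylcholine. Heavy and kappa chains carry most mouse antibodies, and lambda chains a minority.

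The 2 heavy chain members were nearly the same sequence, so reads from one can be placed on the other. Ighv11-2 lies at chr12:114048241-114048812 and Ighv11-1 at chr12:113981879-113982341, both on the minus strand of GRCm38 and 65.9 kb apart. Each has 2 exons, a leader exon and the V exon. Their coding sequences in the GENCODE M21 transcripts are both 353 bases long, and the last 293 bases (61 to 353), which hold every difference between them, are shown with the differing bases in capitals.
Ighv11-2: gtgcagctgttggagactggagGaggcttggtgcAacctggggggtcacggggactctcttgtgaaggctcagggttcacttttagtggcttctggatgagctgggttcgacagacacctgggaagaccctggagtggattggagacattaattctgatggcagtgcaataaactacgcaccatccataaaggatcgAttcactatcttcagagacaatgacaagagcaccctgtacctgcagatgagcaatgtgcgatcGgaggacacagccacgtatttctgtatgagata
Ighv11-1: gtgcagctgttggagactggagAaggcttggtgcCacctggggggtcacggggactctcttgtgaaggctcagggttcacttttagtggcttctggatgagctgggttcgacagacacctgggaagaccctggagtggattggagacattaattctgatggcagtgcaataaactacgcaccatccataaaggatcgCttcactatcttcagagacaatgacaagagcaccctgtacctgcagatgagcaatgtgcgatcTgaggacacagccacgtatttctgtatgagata
They differ at 4 bases, G83A, A95C, A258C and G321T, counted from 1 at the A of the start codon with the Ighv11-2 base first, an identity of 98.9%. Of the 387 stretches of 75 bases (the read length) in the Ighv11-2 transcript, 96 also occur in Ighv11-1, or 24.8%, and these are 34.4% of the 279 stretches of Ighv11-1. The sources used here do not say how reads that match both were counted, so the split between these 2 genes is uncertain.

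The light chain members are shown by the last 72 bases of the V exon, where the V segment meets its J segment and which tells the genes apart. The capitals mark the last in-frame TGT, the codon of the conserved cysteine before the third complementarity-determining region. Igkv17-127 (chr6:67861153-67861659), Igkv14-126 (chr6:67896172-67896642), Igkv2-116 (chr6:68151885-68152617) and Igkv2-109 (chr6:68302427-68303158) lie in the part of the kappa locus far from the constant gene, 2423 to 2865 kb before Igkc and, like it, on the plus strand. Igkv8-28 (chr6:70143593-70144166) lies 582 kb from Igkc on the minus strand. Iglv1 is at chr16:19085017-19085500 and Iglv3 at chr16:19241207-19241690, 156 kb apart on the minus strand.
Igkv8-28: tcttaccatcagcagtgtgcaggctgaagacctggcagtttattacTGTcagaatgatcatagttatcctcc
Igkv2-109: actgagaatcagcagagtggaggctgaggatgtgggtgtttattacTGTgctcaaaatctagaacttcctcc
Igkv17-127: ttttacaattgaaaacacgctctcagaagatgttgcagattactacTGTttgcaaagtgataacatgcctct
Igkv14-126: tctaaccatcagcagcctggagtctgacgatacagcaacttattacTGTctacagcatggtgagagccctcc
Igkv2-116: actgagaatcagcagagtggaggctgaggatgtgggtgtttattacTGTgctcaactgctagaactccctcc
Iglv1: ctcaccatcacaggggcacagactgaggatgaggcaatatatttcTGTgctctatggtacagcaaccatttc
Iglv3: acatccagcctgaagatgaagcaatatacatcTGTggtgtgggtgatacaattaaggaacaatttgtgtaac
Igkv2-109 and Igkv2-116 were the closest pair of light chain members, with 15 differences in 362 bases and 95.9% identity, and 9 stretches of 75 bases in common. Igkv17-127 shares 69 of its 285 stretches with Igkv17-121, which had 0 counts, and Iglv1 shares 30 of 317 with Iglv2, which had 4. Igkv14-126 and Iglv3 share none with any other annotated transcript. GENCODE lists Igkv2-116 as a pseudogene and the other 8 as genes, while the RefSeq table for the same build lists both Igkv2-116 and Igkv14-126 as pseudogenes.

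V genes were thinly sampled in these libraries. The protocol reads the 3′ end of messenger RNA, whereas a V exon lies near the 5′ end of the transcript, with the constant gene's exons after it. All V genes together held 842 counts in the 6 libraries against 658759 counts on the constant genes, or 782 constant counts for each V count. The ratio differed by locus: there were 1463 constant counts for each heavy V count, 745 for each kappa and 278 for each lambda V count. A share of V counts is therefore a share of the few reads that reached a V exon, and it cannot be read as a share of cells or of transcripts. The libraries held 2472064 to 3105137 counts each, and a single count equalled 0.322 to 0.405 CPM, the counts scaled to a common library size.

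**Figure D1:**
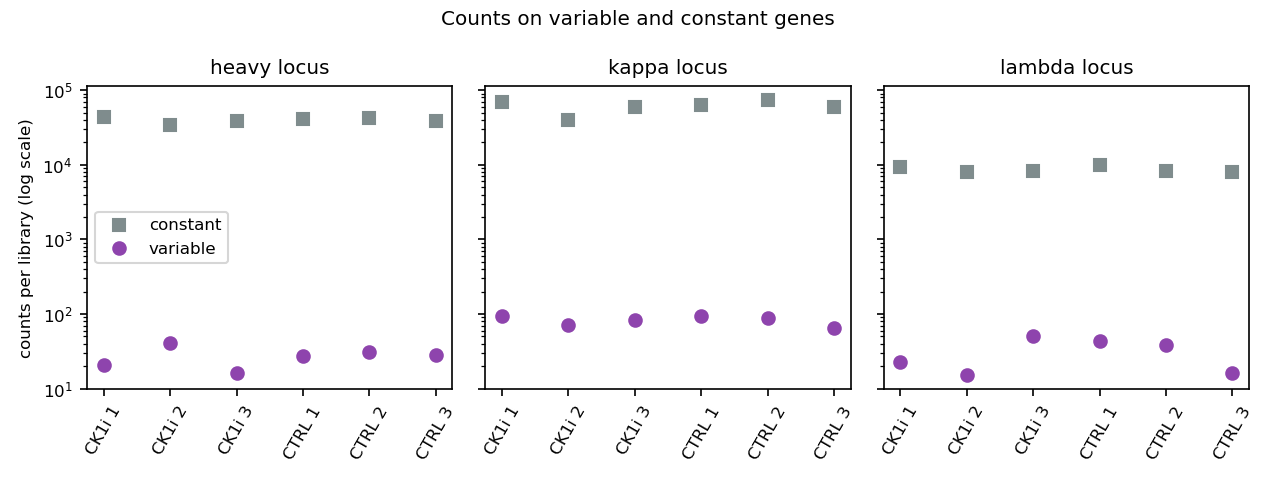
Counts on variable genes (circles) and constant genes (squares) of the heavy, kappa and lambda loci in each of the 6 libraries, on a log scale. Variable gene counts lie between 15 and 94 per library and locus, and constant gene counts between 7924 and 74466.

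The V counts were concentrated on the members, which held 790 of the 842 counts, or 93.8%. Another 24 V genes had a count, 52 in all, and 313 had none. Just inside the choice were Ighv11-1 with 8 counts and Igkv2-116 with 12. Just outside it were Igkv2-107, a pseudogene, also with 8 counts, then Igkv4-77, Igkv6-20, Igkv8-24 and Iglv2 with 4 counts each, Ighv3-6 with 2, and Ighv13-1 and Ighv14-3 with 1 each. Igkv2-107 equals Ighv11-1 in counts, so the choice follows rank within a locus and not a single count minimum. Ighv12-3 and Igkv4-91, the V genes of the other well-known phosphatidylcholine receptor of B-1 cells, had 0 counts, and at this depth a level of up to 0.176 CPM (3 counts over the 6 libraries together) would not be detectable. These 2 genes were looked up after the leading V genes were known.

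In the heavy chain locus 1 gene took nearly all counts. Ighv11-2 had 19, 39 and 14 counts in the CK1i libraries (replicates 1, 2 and 3 in this order throughout) and 26, 28 and 26 in the CTRL libraries. It was the most counted heavy V gene in every library, with CK1i replicate 2 highest and CK1i replicate 3 lowest, so the CTRL libraries fell inside the range of the CK1i libraries. Its share of heavy V counts was 92.7% over all libraries (Wilson 95% interval 87.6 to 95.8%), and ran from 87.5 to 96.3% by library. The shares were 91.0 ± 3.84% in CK1i and 93.2 ± 2.998% in CTRL (SD, n = 3). Intervals here cover counting error only, and reads that are copies of 1 molecule would make them too narrow.

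Ighv11-1, its near-copy, had 1, 2 and 0 counts in CK1i and 1, 3 and 1 in CTRL. That is 4.88% of heavy V counts (Wilson 95% interval 2.49 to 9.33%), and the 0 in CK1i replicate 3 was 0 of 16 heavy V counts, which allows a share of up to 18.8% (3 counts).

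Kappa counts were spread over 4 genes. Igkv8-28 had 30, 29 and 36 counts in CK1i and 30, 36 and 18 in CTRL, and was the most counted kappa V gene in every library. CTRL replicate 3 was the lowest, and the groups overlapped. Its share was 36.3% of kappa V counts overall (Wilson 95% interval 32.2 to 40.6%). Igkv2-109 followed with 26, 12 and 24 counts in CK1i and 21, 19 and 12 in CTRL, a share of 23.1% (19.6 to 27.04%). For this gene CK1i replicate 2 and CTRL replicate 3 were the low libraries, so each group held high and low values.

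The neighbours Igkv17-127 and Igkv14-126, 34.5 kb apart, came next. Igkv17-127 had 14, 9 and 7 counts in CK1i and 21, 11 and 13 in CTRL, or 15.2% of kappa V counts (12.3 to 18.7%). Its highest value was in CTRL replicate 1 and its lowest in CK1i replicate 3, and CK1i replicate 1 lay among the CTRL libraries. Igkv14-126, the usual partner of Ighv11-2 in phosphatidylcholine receptors, had 16, 11 and 8 counts in CK1i and 12, 11 and 11 in CTRL. It took 14.0% of kappa V counts (11.2 to 17.3%). Igkv2-116 had 4, 2 and 1 counts in CK1i and 2, 1 and 2 in CTRL, 2.43% of kappa V counts.

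The lambda locus has 3 V genes, and Iglv1 varied more between libraries than any other member. It had 16, 7 and 41 counts in CK1i and 26, 33 and 9 in CTRL, from 2.27 CPM in CK1i replicate 2 to 16.4 CPM in CK1i replicate 3, a 7.24-fold range that lies within the treated group. The exact Poisson 95% intervals of these 2 libraries, 0.911 to 4.67 and 11.8 to 22.2 CPM, did not overlap. The CTRL libraries were also spread, with 13.1 CPM in replicate 2 (9.01 to 18.4) and 2.996 CPM in replicate 3 (1.37 to 5.69). Iglv3 had 6, 8 and 8 counts in CK1i and 15, 5 and 7 in CTRL, with CTRL replicate 1 highest. Iglv1 took 71.4% of lambda V counts overall (Wilson 95% interval 64.5 to 77.4%) and from 46.7% in CK1i replicate 2 to 86.8% in CTRL replicate 2. Iglv3 took 26.5% (20.7 to 33.3%).

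**Figure D2:**
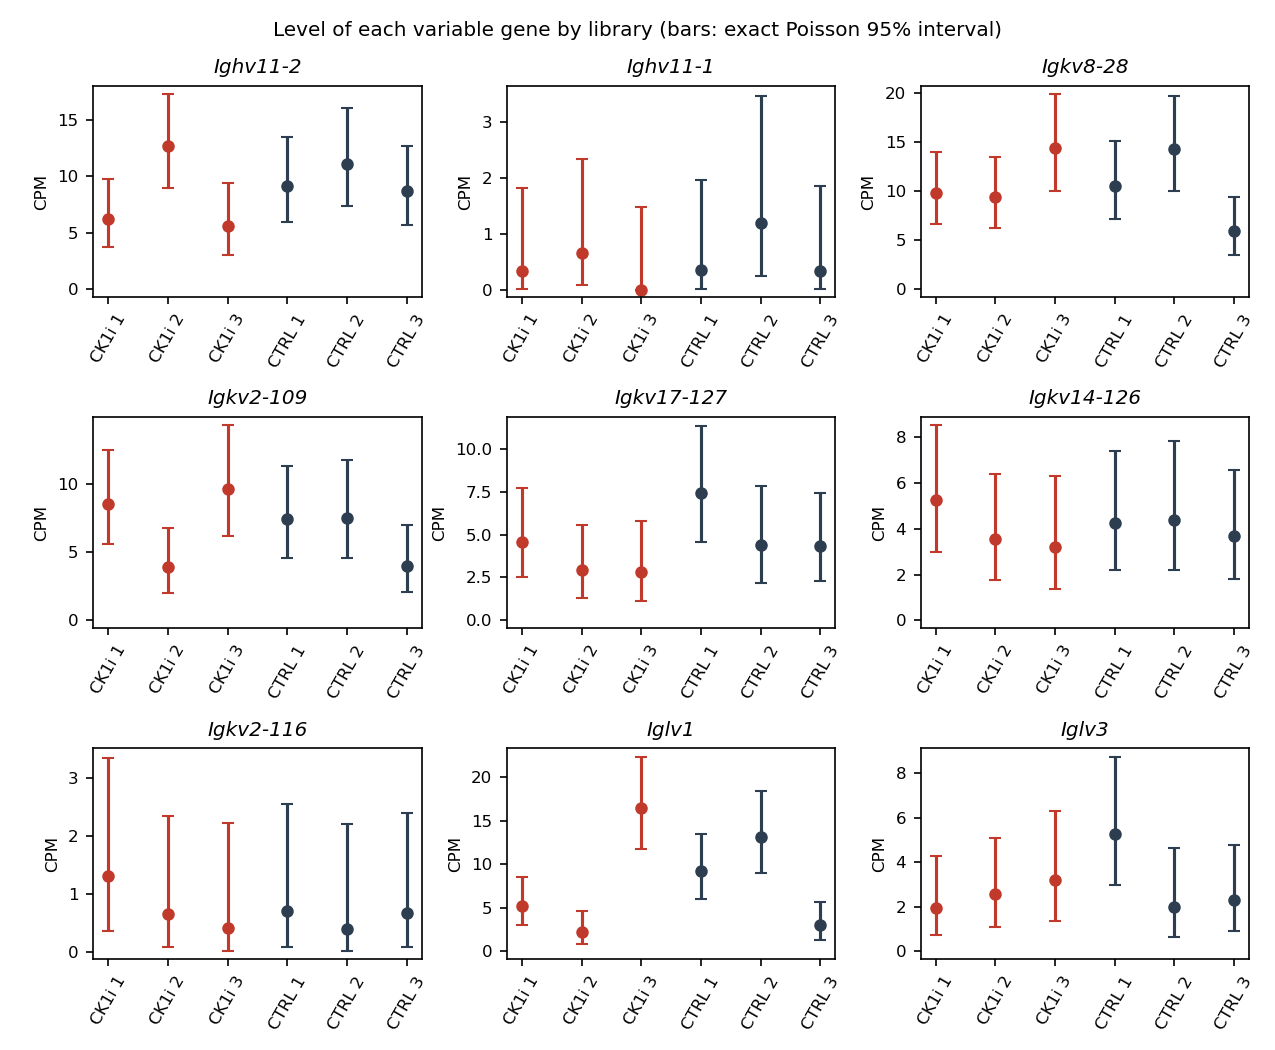
Level of each of the 9 variable genes in CPM in the 3 CK1i libraries (red) and the 3 CTRL libraries (dark blue), with exact Poisson 95% intervals as bars. Iglv1 runs from 2.27 to 16.4 CPM with both extremes in CK1i, and the groups overlap for every gene.

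How far libraries differed beyond counting was described by the squared deviation from equal levels over its Poisson expectation, which is near 1 for counting error alone. Iglv1 had 11.5. The values were 2.66 for Igkv8-28, 2.41 for Igkv2-109, 2.34 for Ighv11-2, 1.77 for Igkv17-127 and 1.56 for Iglv3. Ighv11-1, Igkv2-116 and Igkv14-126 had 0.898, 0.455 and 0.378. The ratios were not tested, and over 6 libraries counting error alone can also give values somewhat above 1. By another measure, the highest and lowest libraries differed 1.35-fold for Iglc3, 1.43-fold for Iglc2 and 1.45-fold for Iglc1, against 7.24-fold for Iglv1. These 3 lambda constant genes held 12805 to 20722 counts each, against 132 for Iglv1. Counting error thus adds more to the fold of Iglv1, and the folds cannot be compared directly. Iglc4, with 44 counts in all, differed 5.58-fold.

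**Figure D3:**
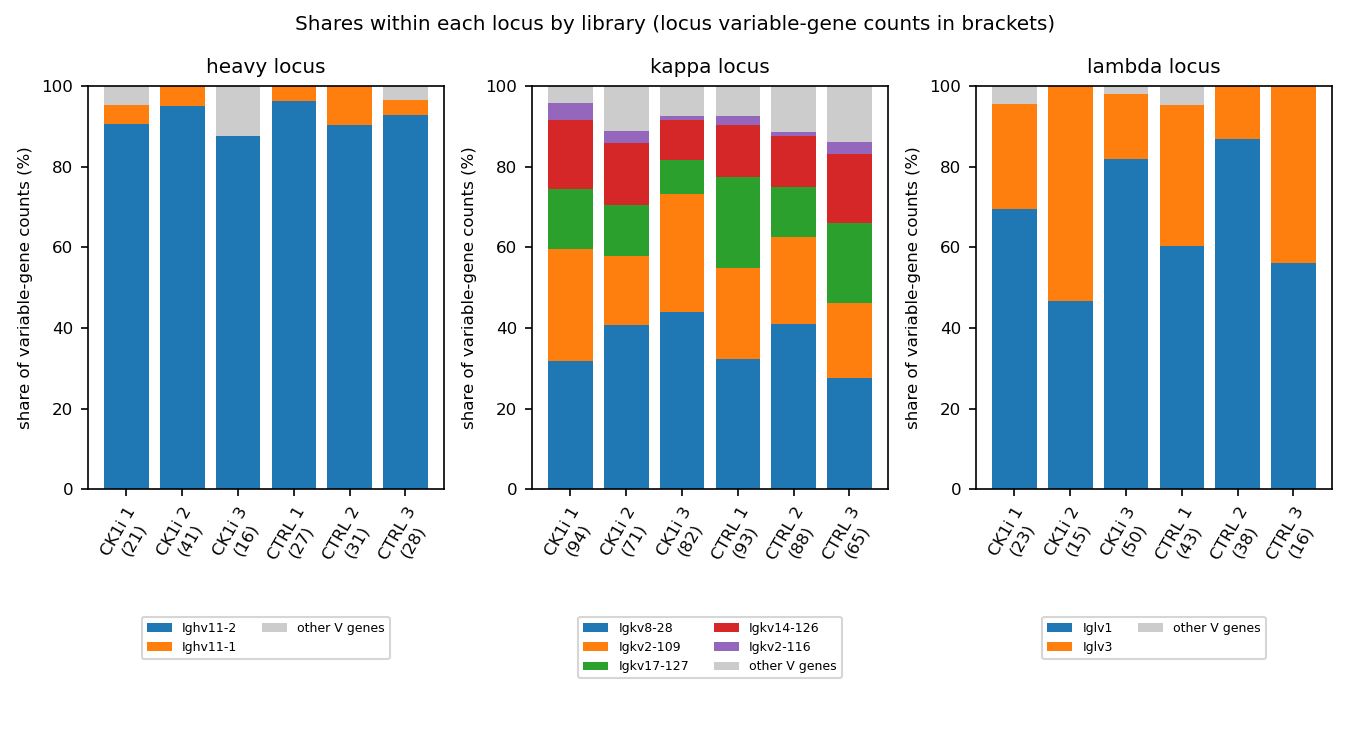
Share of variable gene counts (percent) taken by each member within the heavy, kappa and lambda locus, by library, with grey for all other variable genes and the locus counts in brackets. Ighv11-2 fills 87.5 to 96.3% of the heavy locus, 4 kappa genes divide most of theirs, and the Iglv1 share runs from 46.7 to 86.8%.

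The level of Iglv1 was set beside 5 fixed plasma cell markers, and the relation is described after the values were seen. These markers (Jchain, Sdc1, Prdm1, Tnfrsf17 and Derl3) all had counts, and their summed level was 372 to 1133 CPM in CK1i and 778 to 1504 CPM in CTRL. From low to high the sum ran CK1i replicate 2 (372 CPM), CTRL replicate 3 (778), CK1i replicate 1 (990), CTRL replicate 1 (1097), CK1i replicate 3 (1133) and CTRL replicate 2 (1504). The levels of Iglv1 gave the same order except that the 2 highest libraries changed places. Ighm gave the order of the sum, from 10411 CPM in CK1i replicate 2 to 16088 CPM in CTRL replicate 2. Igkc did too, except that CTRL replicate 1 (22360 CPM) lay below CK1i replicate 1 (22650 CPM). This order was therefore not particular to Iglv1 and the plasma cell markers. Most of the sum was Jchain (1340 of 1504 CPM in CTRL replicate 2), so its order is largely that of Jchain.

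Of the single markers, 4 of 5 had the same lowest library, and their orders otherwise differed. Jchain, which encodes the chain that joins IgM pentamers and IgA dimers, had 2571, 865 and 2451 counts in CK1i and 2597, 3378 and 1892 in CTRL. Sdc1, the plasma cell surface proteoglycan CD138, had 25, 4 and 20 counts in CK1i and 26, 23 and 14 in CTRL. Tnfrsf17, the survival receptor BCMA, had 26, 5 and 28 counts in CK1i and 18, 26 and 11 in CTRL. Prdm1, the transcription factor that drives plasma cell differentiation, had 108, 60.2 and 90.0 CPM in CK1i and 127, 82.1 and 99.9 CPM in CTRL. It did not follow Iglv1 beyond the lowest library: CTRL replicate 2, second highest for Iglv1, was second lowest for Prdm1. CK1i replicate 2 was the lowest library for Iglv1 and for these 4 genes, but not for Derl3, an endoplasmic reticulum gene, which had 70, 88 and 109 counts in CK1i and 109, 158 and 121 in CTRL. Ighg2b, a switched heavy chain constant gene, had 7, 1 and 22 counts in CK1i and 3, 15 and 6 in CTRL, with its 2 highest libraries the same as those of Iglv1. Ighg2c had 19 of its 24 counts in CK1i replicate 3. The part of plasma cells in the Iglv1 values was not tested, and in bulk RNA fewer cells of a type and less RNA per cell cannot be told apart.

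**Figure D4:**
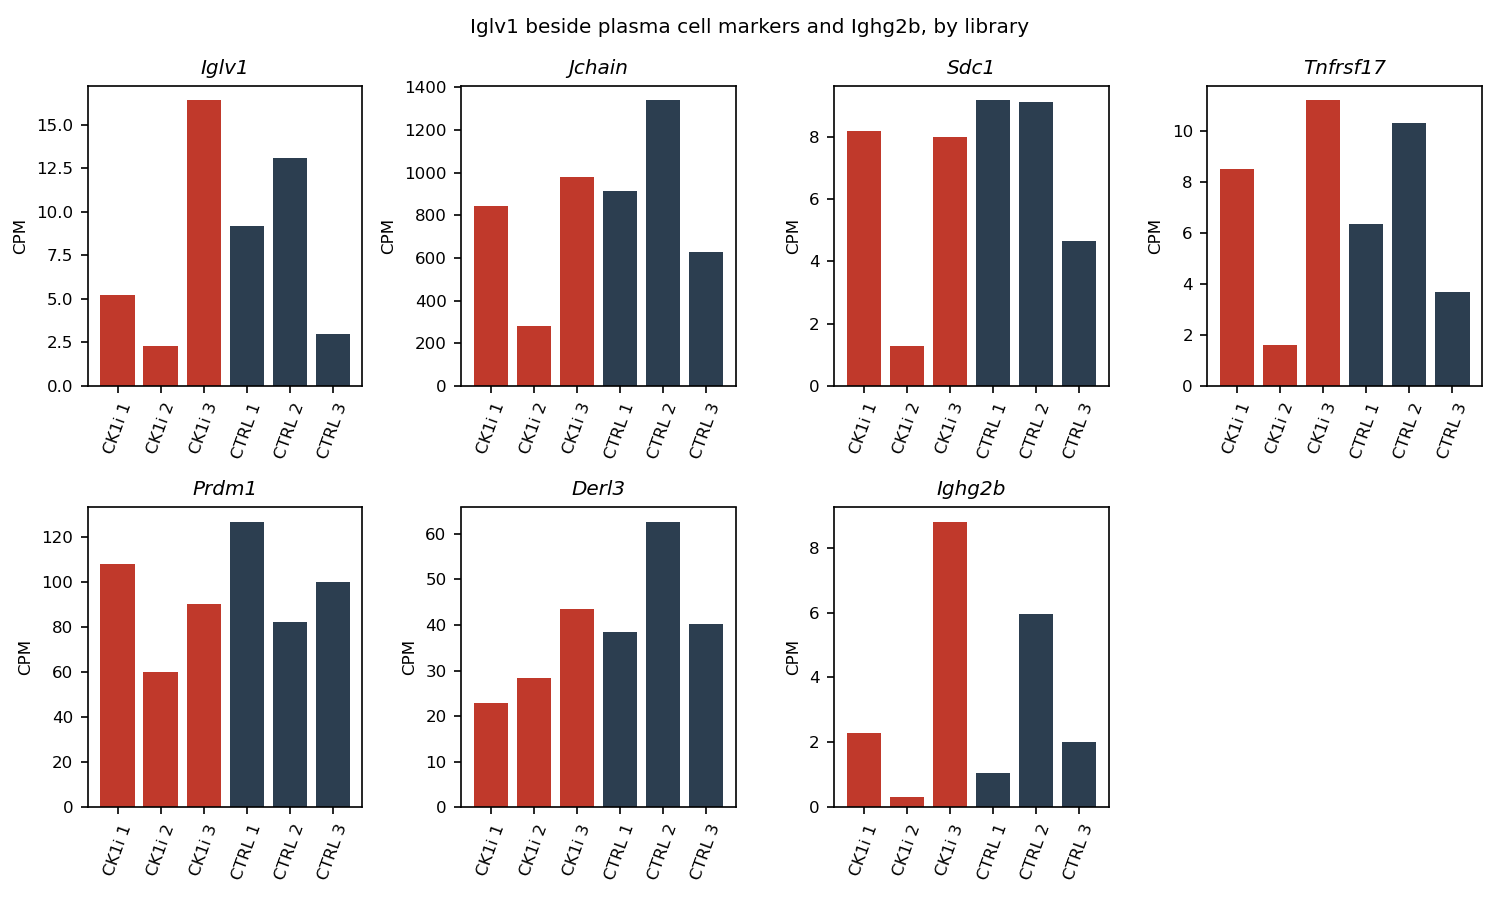
Levels in CPM of Iglv1, the plasma cell markers Jchain, Sdc1, Tnfrsf17, Prdm1 and Derl3, and the constant gene Ighg2b in the 3 CK1i libraries (red) and 3 CTRL libraries (dark blue). CK1i replicate 2 is the lowest bar in every panel but that of Derl3, and CK1i replicate 3 and CTRL replicate 2 are the 2 highest for Iglv1, Jchain, Tnfrsf17, Derl3 and Ighg2b but not for Sdc1 or Prdm1.

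Ighv11-2 did not follow that order, and its highest library was CK1i replicate 2. The 2 main constant genes of the locus went opposite ways there. Ighm, which encodes the IgM heavy chain, had 41971, 32169 and 37360 counts in CK1i and 40520, 40566 and 37418 in CTRL, and was lowest in CK1i replicate 2. Ighd, the IgD heavy chain, had 1064, 1358 and 619 counts in CK1i and 752, 837 and 883 in CTRL, and was highest in that library. Heavy V counts per 10000 heavy constant counts were 4.803, 12.0 and 4.11 in CK1i and 6.46, 7.34 and 7.18 in CTRL, so CK1i replicate 2 stood highest and CK1i replicates 1 and 3 lowest. For kappa the ratios were 13.6, 17.8 and 13.6 in CK1i and 14.7, 11.8 and 10.8 in CTRL, again with CK1i replicate 2 highest, and Igkc, the kappa constant gene, was lowest in that library (12874 CPM, against 20026 to 29532 CPM in the others). Lambda ratios were 24.9, 18.9 and 61.2 in CK1i and 43.3, 46.1 and 20.03 in CTRL, with CK1i replicate 2 lowest. The groups overlapped in all 3 ratios.

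The comparison of CK1i with CTRL asks whether V gene counts in the sorted cells differed after treatment with the inhibitor. Which members belong to the leukaemic cells was not tested. No difference past the threshold was found for any member. Of the 9, 6 passed the filter on low counts, and edgeR's quasi-likelihood test called 0 of them at an adjusted p under 0.05, where it called 0 of all 10067 tested genes (0%). Over all genes limma-voom called 0 and DESeq2 5. Both called 0 members, and 0 members had an unadjusted edgeR p under 0.05, against 466 of the tested genes (4.63%). The levels of the groups overlapped for all 9 members, where 9.65% of tested genes had groups that did not overlap.

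The most counted members differed little on average. The mean level of Ighv11-2 was 8.15 ± 3.89 CPM under CK1i against 9.64 ± 1.29 CPM under vehicle (SD, n = 3). Its log2 fold change in edgeR was -0.22 ± 0.34 (SE, adjusted p = 1.00). Its 95% interval ran from -0.95 to 0.51. Igkv8-28 had 11.2 ± 2.77 and 10.3 ± 4.15 CPM, a log2 fold change of 0.13 ± 0.33 with an interval from -0.58 to 0.83. Both intervals are wide on either side of 0, so equal levels are not shown.

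Igkv17-127 had the smallest p of the members, unadjusted 0.14 (edgeR, adjusted p = 1.00), and means of 3.43 ± 1.00 CPM under CK1i against 5.37 ± 1.77 CPM under vehicle (SD, n = 3). Its log2 fold change was -0.63 ± 0.40 (SE), with an interval from -1.49 to 0.23. Igkv2-109 had 0.21 ± 0.39 and Igkv14-126 -0.02 ± 0.39. Iglv1, at 7.97 ± 7.45 CPM under CK1i against 8.42 ± 5.09 CPM under vehicle, had -0.11 ± 0.75 and the widest interval, from -1.86 to 1.65. The log2 fold change of Iglv1 was 0.35 without CK1i replicate 2, 0.34 without CTRL replicate 2 and -1.14 without CK1i replicate 3. Ighv11-1, Igkv2-116 and Iglv3 were too low to pass the filter. With no filter their log2 fold changes in edgeR were -0.73, 0.41 and -0.33 (adjusted p = 0.93, 0.96 and 0.93).

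**Figure D5:**
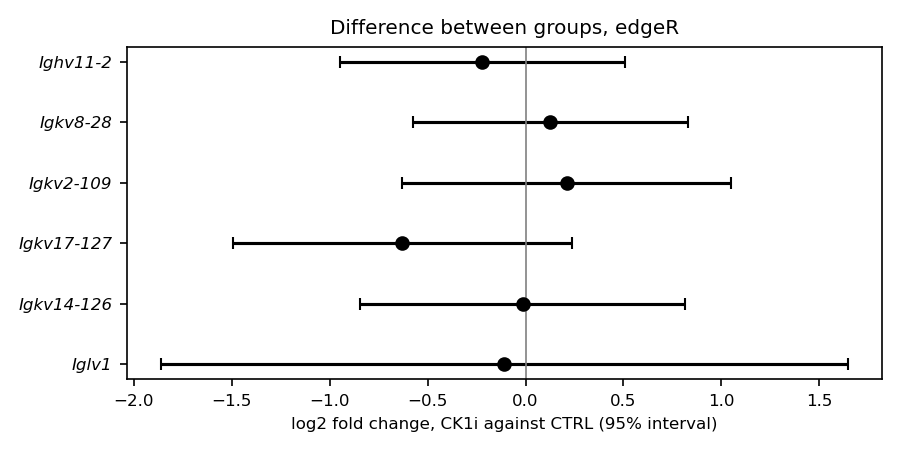
Log2 fold change of CK1i against CTRL for the 6 members that could be tested, with 95% intervals as bars (edgeR). All 6 intervals include 0, and that of Iglv1, from -1.86 to 1.65, is the widest.

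Shares within a locus do not depend on how libraries are scaled, and the groups overlapped for all 9. Igkv17-127 took 12.0 ± 3.23% of kappa V counts in CK1i and 18.4 ± 5.24% in CTRL (SD, n = 3), a difference of -6.32 percentage points (exact two-sided permutation p = 0.3, adjusted p = 0.90 over the 9 shares). Igkv8-28 took 38.9 ± 6.23% and 33.6 ± 6.71%, a difference of 5.27 points (exact permutation p = 0.5, adjusted p = 0.90). Igkv2-109 differed by 3.73 points, Ighv11-2 by -2.13 and Ighv11-1 by -2.44, Iglv1 by -1.78 and Iglv3 by 1.21, Igkv2-116 by 0.64 and Igkv14-126 by -0.02. The smallest exact p of the 9 was 0.3, where 3 libraries against 3 cannot go below 0.1.

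The evenness of V gene use was summed up by the inverse Simpson number, which is 1 when a single gene takes all counts and equals the number of genes when all take the same. For the heavy locus it was 1.20 ± 0.10 in CK1i and 1.15 ± 0.07 in CTRL (SD, n = 3; exact permutation p = 0.4). The kappa locus had 3.96 ± 0.51 and 4.65 ± 0.72 (exact permutation p = 0.4), and the lambda locus 1.74 ± 0.28 and 1.77 ± 0.41 (exact permutation p = 0.9). Adjusted over the 3 loci these p-values were 0.60, 0.60 and 0.90.

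The constant genes, onto which the V genes are spliced, were not called either. Ighm had a log2 fold change of -0.13 ± 0.20 (SE), Igkc -0.27 ± 0.25, Iglc1 0.03 ± 0.16, Iglc2 -0.17 ± 0.16 and Iglc3 -0.10 ± 0.16 (edgeR, each adjusted p = 1.00). Among the switched constant genes, Ighg3 had 0.24 ± 0.28 and Igha -0.12 ± 0.20. Ighd, the IgD constant gene that is spliced to the same V exon as Ighm, had 0.22 ± 0.19.

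Genes that act on or with the V genes were taken from 4 lists, and 0 of their members were called in either direction (edgeR, 0% of all tested genes). The median log2 fold change over all tested genes was -0.01. Of 9 genes for the surrogate light chain and recombination 3 could be tested, with a median of 0.02. Rag2 and Dntt, which cut and extend V(D)J ends, and the surrogate light chain genes Igll1 and Vpreb2 had 0 counts in all libraries. Rag1 had 1 count. The surrogate light chain gene Vpreb1 had 13 counts, with 2, 5 and 1 in CK1i and 2, 0 and 3 in CTRL. Vpreb3, a B-cell relative of the surrogate light chain, ranged from 13 counts in CTRL replicate 1 to 154 in CTRL replicate 2.

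All 11 B-cell receptor partners were tested, with a median of -0.01. Among them Cd79a, a signalling chain of the receptor, had a log2 fold change of -0.33 ± 0.26 (SE). The groups did not overlap for 2 of the 11, where 9.65% of tested genes had such groups. Cd79b was among these 2 and lower in CK1i (-0.12 ± 0.14). The 12 octamer and immunoglobulin enhancer factors had a median of -0.01. The smallest p among them belonged to Pax5 with 0.22 ± 0.15 and Tcf3 with -0.21 ± 0.15. The 9 plasma cell and secretion genes had a median of -0.25, with -0.58 ± 0.25 for Derl3 (edgeR unadjusted p = 0.041, adjusted p = 1.00) and -0.25 ± 0.18 for Mzb1.

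Some features that the choice did not use were looked at as well. The longest run of A, a base stretch on which oligo(dT) primers can also anneal, was 5 or more bases in 2 of the 9 members and in 72 of all 346 V genes (20.8%). Across the 6 libraries, the genes outside the immunoglobulin loci whose log2 CPM followed Ighv11-2 most closely were Rbm34, Ccdc180 and Mier2 (Pearson r = 0.989, 0.983 and 0.980). For Igkv8-28 they were Abhd4, Stx6 and Gm9703 (0.995, 0.992 and 0.985), and for Iglv1 Mrpl50, 2610035D17Rik and Rsl1d1 (0.992, 0.984 and 0.977). These are the best of 10053 genes over 6 points scaled by the same library sizes, and 35, 140 and 77 genes exceeded 0.9 for the 3 V genes.

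The libraries carried the markers of B cells. All 6 B-cell markers and all 5 markers of the CLL and B-1 phenotype had counts, with sums of 4897 to 5270 CPM and 983 to 1133 CPM. The summed CLL and B-1 markers were 983 to 1032 CPM in CK1i and 1061 to 1133 CPM in CTRL, a difference that was not tested. Taken singly, 0 of these 5 markers and 2 of the 6 B-cell markers had groups that did not overlap, where 9.65% of tested genes did. EdgeR called 0 markers of either set. The 8 T-cell markers summed to 1.94 to 21.2 CPM, lowest in CK1i replicate 2 and highest in CK1i replicate 3, as for Iglv1, but in CTRL they were lowest in replicate 2, where Iglv1 was highest. Markers of NK, neutrophil and erythroid cells and of platelets summed to at most 5.66 CPM each. Monocyte and macrophage markers, mainly Cd68, summed to 35.3 to 44.9 CPM in CK1i and 27.2 to 29.7 CPM in CTRL, a difference in sums that was not tested. Of these 6 markers 2 passed the filter and edgeR called 0. Only Cd68 of the 2 had groups that did not overlap (edgeR adjusted p = 0.95). The part of these other cells in the V gene values was not tested.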

How the data were processed

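The authors deposited 1 table of whole-number counts per gene for 6 libraries, with 54232 genes, 0 rows without a gene and 0 columns of no sample. Per the labels' protocols, libraries were made with a QuantSeq 3′ forward kit with unique molecular identifiers (UMIs) and read at 75 bases. Among the tools in the submitters' processing notes are STAR 2.7.3a, featureCounts 1.6.3 and UMI-tools 1.1.1, with the build GRCm38.p6. UMI collapsing, the strand setting and the handling of reads with several matches are not given in the sources used here. All libraries carry 1 batch label.

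Identifiers were matched to GENCODE M21 (GRCm38): 54165 matched and 67 did not. None of the 9 members is in the RefSeq promoter table, and no protein sequences were used here. V genes are those typed as V genes or V pseudogenes. The count test was edgeR 4.0.16 (R 4.3.3): filterByExpr (minimum count 10, minimum total 15) left 10067 genes, libraries were scaled by TMM from their full totals, and the robust quasi-likelihood test compared CK1i with CTRL, with Benjamini-Hochberg adjustment over all tested genes and a threshold of 0.05. The SE is the log2 fold change divided by the root of F. CPM are TMM-scaled, and log2 CPM used a prior count of 2. Shares and evenness were compared by exact two-sided permutation over 20 assignments. The edgeR step was tested on simulated data. Alternatives were DESeq2 1.42.0, limma-voom (limma 3.58.1), other filters and scalings, other denominators, and leaving out each library.

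The members and the lists were chosen with earlier results of these data known. Named genes are the members, the V genes next in rank in each locus, the constant and joining genes, up to 2 genes with the smallest p from each list, and the 3 genes most like the leading V gene of each locus; any other was chosen after its values were seen. Results for 2 genes of these lists are not reported here.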

Additional observations from a re-analysis of the deposited data

How the results depend on the processing

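V counts of 15 to 94 per library and locus limit these results, since 1 count is more than 1% of the V counts of its locus in every library. No member passed the threshold under any of the 12 alternatives. Over all genes edgeR called 0 genes, 76 with no filter on low counts, 5 in DESeq2, and 0 to 1 with 1 library left out (1 without CK1i replicate 2, CTRL replicate 1 or CTRL replicate 3). With 1 library left out, the log2 fold change ran from -0.70 to -0.03 for Ighv11-2, from -0.90 to -0.33 for Igkv17-127, from -0.16 to 0.42 for Igkv8-28, from -0.043 to 0.52 for Igkv2-109, from -0.26 to 0.10 for Igkv14-126 and from -1.14 to 0.35 for Iglv1, so the last 4 changed sign. Under other scalings, filters and tests these 6 kept their sign where tested (Igkv17-127 and Igkv14-126 did not pass a minimum count of 20). The difference in share (CK1i minus CTRL, percentage points) changed sign with 1 library left out for Igkv14-126 (-1.48 to 2.15), Igkv2-116 (-0.10 to 1.41), Iglv1 (-9.74 to 7.93) and Iglv3 (-9.55 to 9.11). With variable plus constant counts as the denominator it was 0.0040 for Igkv14-126 and -0.012 for Iglv3, both opposite in sign. The lambda difference in evenness was 0.026 by the exponential of the Shannon entropy, and -0.26 to 0.13 with 1 library left out. The cause of these changes was not tested. A minimum of 10 counts for V genes leaves 1 heavy gene, so it gives no heavy value. No paired analysis was possible because the labels give no replicate number that the groups share.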

Other observations

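Joining (J) and diversity (D) segments, which lie between the V gene and the constant gene in a rearranged transcript, held fewer counts in total than V genes. The 14 J genes held 72 counts and the 20 heavy D genes 0, against 842 on the 346 V genes. A count was found for 9 of the 14 J genes and for 33 of the 346 V genes. The part of segment length in these counts was not tested. In the heavy locus Ighj1 had 15 counts and Ighj4 3. Igkj5, the kappa J segment nearest to Igkc, had 20 of the 32 kappa J counts, with 1, 5 and 0 in CK1i and 8, 3 and 3 in CTRL. Iglj3 had 18 of the 22 lambda J counts, with 2, 3 and 6 in CK1i and 5, 2 and 0 in CTRL. The J gene counts are too low to compare the groups.

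Constant genes of switched isotypes had counts beside Ighm, and whether these came from switched cells was not tested. Ighg3 had 562, 569 and 821 counts in CK1i and 397, 648 and 578 in CTRL, and Igha had 115, 110 and 111 in CK1i and 112, 141 and 99 in CTRL. Ighg1 had 6, 0 and 3 counts in CK1i and 0, 0 and 2 in CTRL. The libraries do not link a V gene to a constant gene, so which isotype Ighv11-2 or Iglv1 was joined to was not measured.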
